A study of Mus musculus with 18 samples.

Results

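The nuclear-encoded respiratory chain genes described here are 63 of the 53946 genes in the count table. Their products are subunits of NADH dehydrogenase (complex I, 35 genes), succinate dehydrogenase (complex II, 4 genes), the cytochrome bc1 complex (complex III, 8 genes) and cytochrome c oxidase (complex IV, 15 genes, with Ndufa4 and Ndufa4l2 counted here), together with the electron carrier cytochrome c (1 gene). They were chosen by symbol (Nduf, Uqcr and Cox genes of the listed forms, Sdha to Sdhd and Cycs) and by a mean CPM (counts scaled to the library total) of at least 1 in at least 1 of the 4 groups. The rule names no difference between groups, but it was set with earlier results of these data known. Of 70 symbols that matched, 2 were pseudogenes and 5 stayed below that level, namely Cox8b, Cox8c, Cox7b2 and a second identifier each of Uqcrc1 and Ndufs3. All 63 members passed the filter on low counts. Ndufa4l2 met the level only through KO (mean 1.32 CPM, against 0.405 in AML and 0 in NHD13 and WT) and Cox6a2 only through WT (11.2 CPM, against 0.905 in AML, 0.608 in KO and 0.213 in NHD13), so the choice itself fixed the direction of their differences to those groups. Both are in the counts below, but the direction of those calls is not a result. For those differences the text prints values and no p-value. The symbol rule does not reach 4 further subunit genes, Cox4i1, Cox4i2, Ndufab1 and Cyc1, which are given apart.

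The respiratory chain passes electrons from NADH and succinate through ubiquinone and cytochrome c to oxygen, and complexes I, III and IV pump protons across the inner mitochondrial membrane as they do so. ATP synthase uses that proton gradient. Most subunits are encoded in the nucleus and imported, while a few core subunits of complexes I, III and IV come from the mitochondrial genome, so that each of these complexes is built from the products of both genomes. In blood formation, quiescent stem cells are known to lean on glycolysis, and progenitors and many human myeloid leukemias to depend more on oxidative phosphorylation.

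RNA was sequenced from 4 groups of 3 mouse libraries on a C57BL/6 background. The AML libraries were made from C-Kit+ spleen cells of leukemic mice with the NUP98-HOXD13 fusion transgene (NHD13) and Setd2 deleted by Mx1-Cre. The KO libraries were made from bone marrow hematopoietic stem and progenitor cells (HSPCs) of mice with the same transgene and deletion, the NHD13 libraries from HSPCs of NHD13/Setd2 flox/flox mice, and the WT libraries from HSPCs of C57BL/6 mice without either. Setd2 encodes the methyltransferase that places trimethylation on histone H3 lysine 36 (H3K36me3), which was mapped by ChIP-seq in 1 library of KO AML and 1 library of NHD13 AML spleen cells, and DNA methylation was measured in 1 bisulfite library for each RNA group. Mx1-Cre is switched on through an interferon response and acts in other cells besides blood cells. The sources used here do not give the promoter behind the fusion gene, the ages or the number of mice. Since no label says that libraries came from separate animals, the spread behind each p-value may be technical. AML and KO libraries differ in organ, sorting gate and disease stage at once, and these cannot be told apart.

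Library totals ran from 18673704 to 28127686 counts. Setd2 stood at 226.5 ± 2.97 CPM in AML, 30.1 ± 2.5 in KO, 27.3 ± 1.48 in NHD13 and 44.9 ± 5.08 in WT (per library total, SD, n = 3 each). KO did not differ detectably from NHD13 (log2 fold change -0.05 ± 0.08 SE, adjusted p = 0.685), and since a count over the whole gene does not see a deleted exon, it does not check the label, so KO below means the libraries labelled KO. The NHD13 libraries went against the HSPC label: 11 stem and progenitor markers summed to 92.2 to 97.3 CPM there, against 984 to 1080 in WT, and 12 neutrophil granule genes to 120400 to 133200 CPM, against 27910 to 32660 in WT. In KO the stem markers summed to 447 to 478 CPM and the granule genes to 48960 to 51890 CPM, and in AML to 867 to 892 and 30930 to 31810 CPM. No marker of these lists was without counts in any group. Xist averaged 0.0173 CPM in AML, 0.059 in KO, 77.0 in NHD13 and 185 in WT, and the Y-linked gene Eif2s3y 84.7, 55.6, 0.0135 and 0 CPM in the same groups, so sex cannot be told apart from group between KO and NHD13. In bulk RNA, fewer cells of a type and less RNA per cell cannot be told apart either.

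Counts in the 63 genes took a smaller part of the AML libraries than of any other. They made up 0.560%, 0.560% and 0.574% of the counts in AML, 2.003%, 1.922% and 1.974% in KO, 1.79%, 1.77% and 1.81% in NHD13, and 1.934%, 1.998% and 2% in WT. The 3 AML libraries lay far below the other 9, and the NHD13 libraries lay below all KO and WT libraries. Complex I took 0.233% ± 0.0031 of the counts in AML, 0.798% ± 0.016 in KO, 0.734% ± 0.018 in NHD13 and 0.819% ± 0.016 in WT (SD, n = 3 each), and complexes II to IV showed the same low place of AML. Cytochrome c alone was at 0.0218% ± 0.00021 in AML, 0.0889% ± 0.0043 in KO, 0.0708% ± 0.0059 in NHD13 and 0.0663% ± 0.0023 in WT, with the 3 KO libraries above all others.

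**Figure D1:**
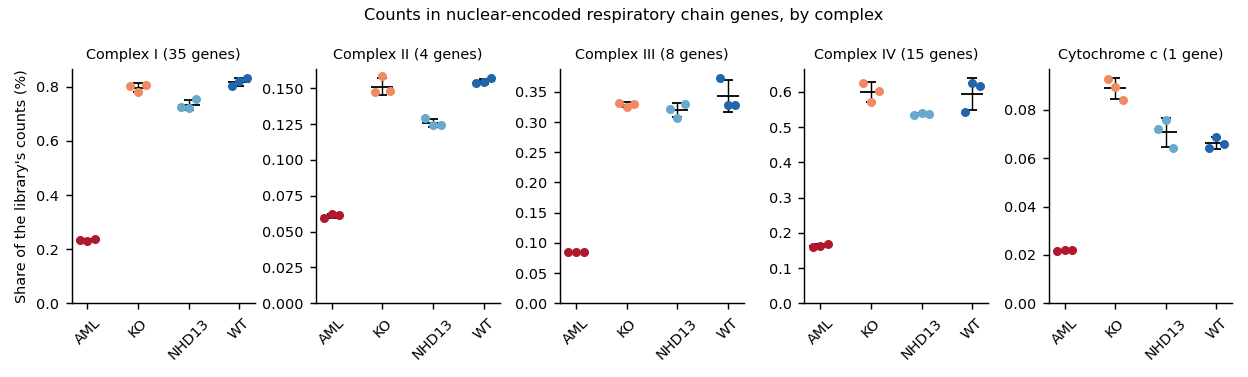
Percent of each library's counts in the members of complexes I to IV and in cytochrome c; points are libraries, bars the mean ± SD of 3. In all 5 panels the AML libraries are the lowest, at 0.233% on average for complex I against 0.798% in KO.

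Levels of different genes were compared per length, as FPKM. Averaged over the 12 libraries, the most abundant members were the small complex IV subunits Cox8a at 1120, Cox6a1 at 1026 and Cox6b1 at 794 FPKM. The leading members of complex III were Uqcr11 at 702, Uqcr10 at 592 and Uqcrb at 427 FPKM, and those of complex I were Ndufa1 at 576, Ndufa2 at 454 and Ndufa6 at 284 FPKM. In complex II the membrane anchor Sdhd was listed at 348 FPKM, the iron-sulfur subunit Sdhb at 145, the flavoprotein Sdha at 83.7 and the second anchor Sdhc at 41.4 FPKM. Far below these stood Cox6a2 at 4.77 FPKM and Cox7a1 at 1.85 FPKM, forms known from heart and muscle, together with Ndufb2 at 0.831 FPKM, whose listed length was 5628 bases, and Ndufa4l2 at 0.394 FPKM.

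The comparison of AML with KO spans disease stage, organ and sorting gate at once. In it 60 of the 63 genes fell and 0 rose (adjusted p below 0.05, edgeR's quasi-likelihood test over 16233 genes), where 39.5% of all genes tested fell and 42.8% rose. Ndufa4l2, whose direction followed from the choice of members, is among the 60. DESeq2 and an unadjusted p below 0.05 in edgeR also gave 0 that rose. The median log2 fold change over the members was -2.33, a 5.04-fold lower level, against 0.08 over all genes tested, with quartiles of the members at -2.69 and -1.89. A fall of at least 2-fold was called for 56 members, against 26.9% of all genes. The mean level was 100 CPM or more for 13 members in AML and for 59 in KO. Apart from the marker lists, CPM here and below use the total of the genes tested, scaled by TMM. TMM is edgeR's trimmed-mean factor that sets libraries level on their typical gene. All 3 AML libraries lay below all 3 KO libraries for those 60 genes, where 40.8% of all genes did so. Scaling to library totals alone moved the median of all genes to 0.49, and relative to that the members' median differed by -2.41 under both scalings.

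By complex, the counts that fell were 34 of 35 in complex I (median -2.33), 4 of 4 in complex II (-2.15), 8 of 8 in complex III (-2.24) and 13 of 15 in complex IV (-2.40), and cytochrome c fell as well. The 3 members that did not pass were Ndufb2 (4.61, 3.71 and 3.28 CPM in AML, against 4.48, 4.41 and 5.36 in KO), Cox7a1 and Cox6a2, all of which were low in every AML and KO library. Their groups overlapped.

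**Figure D2:**
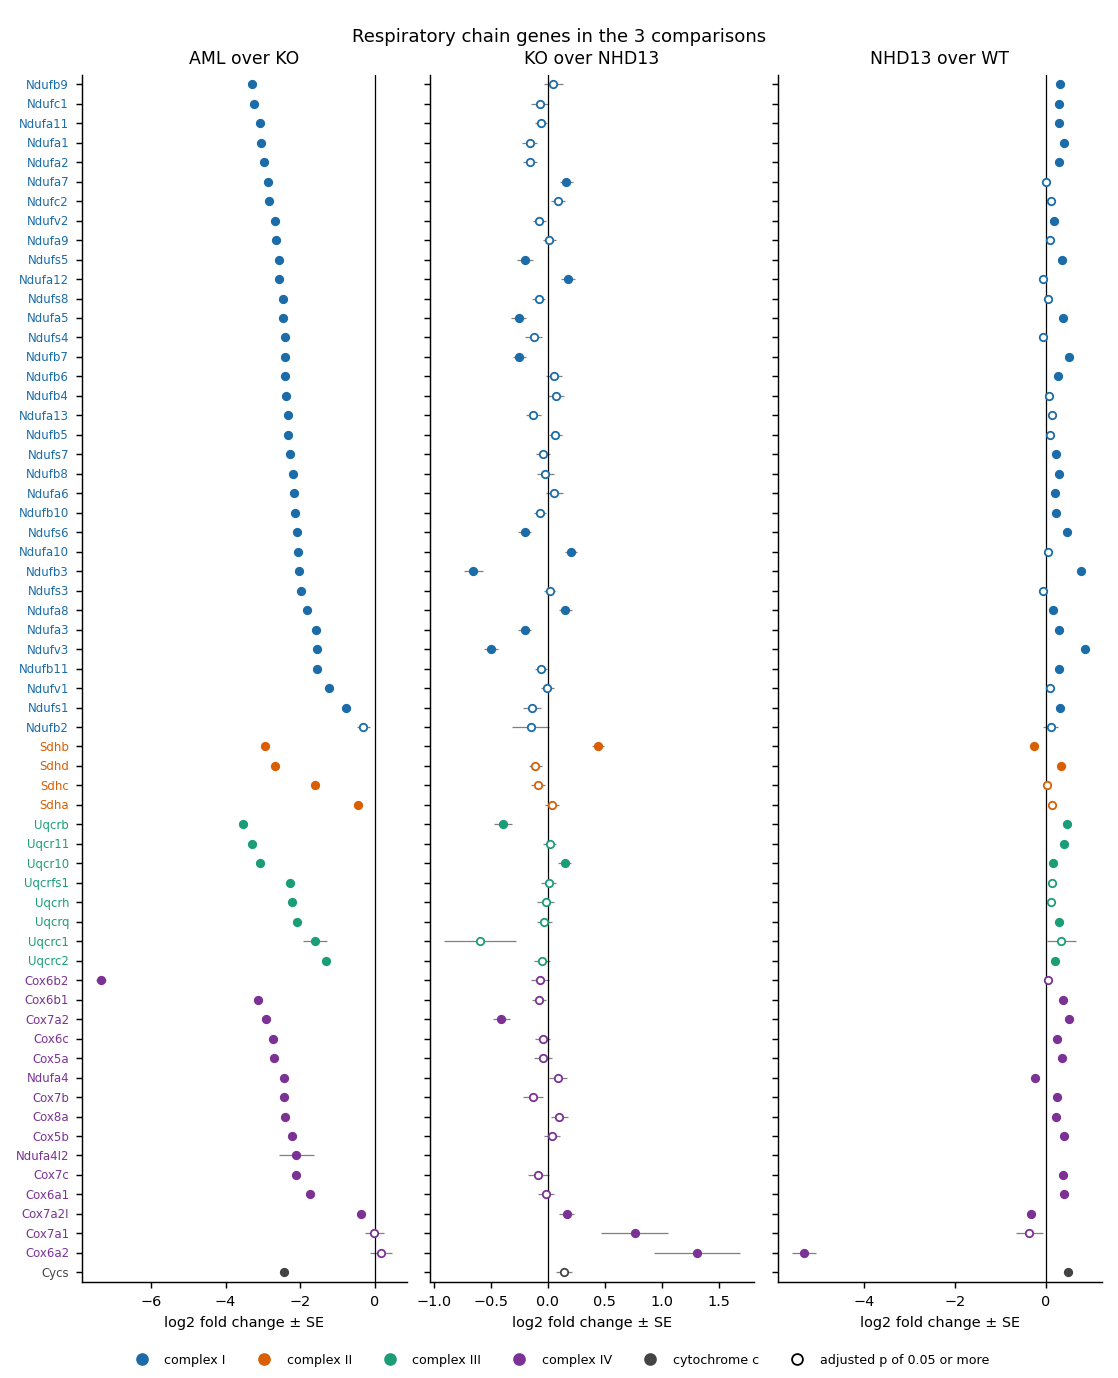
Log2 fold change ± SE of 62 members in the 3 comparisons, ordered within complexes by the AML over KO value; filled points have an adjusted p below 0.05, and Ndufa4l2 is left out of the KO over NHD13 and NHD13 over WT panels because it had no counts in NHD13 or WT. AML over KO values lie left of 0 for nearly all members, with a median over all 63 of -2.33, against -0.04 for KO over NHD13 and 0.21 for NHD13 over WT; scaled to library totals alone, the last 2 medians were 0.15 and -0.16.

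Complex I accepts electrons from NADH. Its falls in AML were deepest among accessory subunits. Ndufb9, an accessory subunit of the membrane arm, had 12.5, 10.9 and 11.3 CPM in AML, against 116, 105 and 121 CPM in KO. Every AML library was far below every KO library (log2 -3.30 ± 0.10, adjusted p = 3.24e-16, or -2.01 with the length correction described below). Ndufc1, another accessory subunit, had 21.2, 20.7 and 25.8 CPM in AML, against 216, 199.7 and 221 CPM in KO (log2 -3.23 ± 0.09, adjusted p = 9.00e-17, or -2.21 with that correction). The X-linked Ndufa1, which is needed for assembly of the complex, had 41.8, 39.8 and 38.5 CPM in AML, against 348, 333 and 318 CPM in KO (log2 -3.06 ± 0.07, adjusted p = 2.83e-17, or -1.24 with it). None of these groups overlapped.

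Some catalytic core subunits of complex I fell by less before that correction. Ndufs1, the large iron-sulfur subunit, had 62.7, 58.6 and 62.4 CPM in AML, against 107, 107 and 100 CPM in KO (log2 -0.77 ± 0.08, adjusted p = 3.67e-08, or -1.65 with the correction). Ndufv1, which binds NADH, differed by -1.23 ± 0.06 (adjusted p = 2.92e-13, or -0.77 with the correction). Over the 7 nuclear-encoded core subunits, a grouping chosen after their values were seen, the median was -1.96, against -2.38 over the 28 accessory ones, and with the length correction it was -1.33 against -1.20, so the order of the medians depends on that correction.

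Gene length moved with this comparison. Over all genes tested, split by length into 4 classes of equal size, the median AML over KO value was -1.01 in the class of the shortest genes and 0.87 in that of the longest (Spearman's rho 0.31 over 16233 genes, which are not independent replicates). The members are short, with a median listed length of 1237 bases, against 3560 over all genes. With a correction for length in each library, 59 members still fell and 3 rose (38.4% and 41.3% of all genes), 43 fell by at least 2-fold (22.9% of all genes), and the members' median was -1.26, a 2.39-fold lower level, against 0.05 over all genes. Corrected medians were -0.96 for the 20 members under 1000 bases, -1.24 for the 22 from 1000 to under 2000 bases and -1.84 for the 21 of 2000 bases or more, against -2.43, -2.35 and -2.06 before correction. The 3 that rose with the correction were Cox7a2l, Cox7a1 and Cox6a2. The correction left the shortest genes above 0. Over all genes in 20 length bins, the corrected median was 0.69 in the bin around 385 bases and 0.51 in that around 744 bases. It was 0.01 in the bin around 1095 bases. Corrected values of the shortest members, Cox7a1 (535 bases) and Cox6a2 (680 bases) among them, are to be read against those levels.

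**Figure D3:**
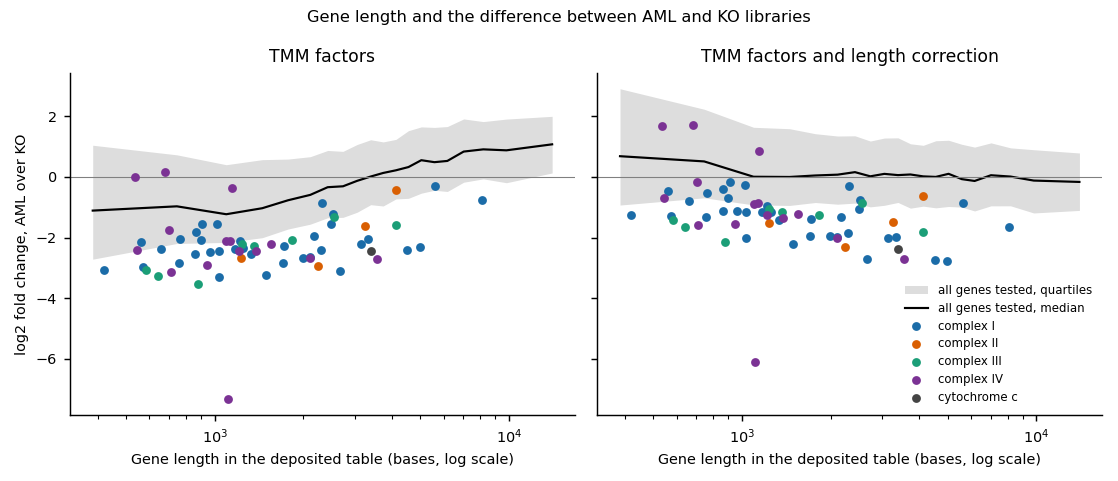
AML over KO log2 fold change against the gene length in the deposited table (log axis), without and with the length correction; points are members, the line and band the median and quartiles of all genes tested in 20 length bins. The members under 1000 bases have medians of -2.43 without and -0.96 with the correction, and those of 2000 bases or more -2.06 and -1.84. With the correction, the line of all genes lies at 0.69 around 385 bases and at 0.51 around 744 bases.

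Complex II, which joins the citric acid cycle to the chain, differed unevenly in AML. Sdhb, the iron-sulfur subunit (ENSMUSG00000009863, chr4:140961271-140979198), had 61.3, 67.3 and 65.5 CPM in AML, against 479.9, 493 and 505 CPM in KO. The groups lay far apart (log2 -2.93 ± 0.06, adjusted p = 3.38e-18, or -2.33 with the length correction). Sdha, the flavoprotein subunit that oxidises succinate (ENSMUSG00000021577, chr13:74322255-74350240), had 275, 298 and 280.2 CPM in AML, against 367, 418 and 371 CPM in KO. All AML libraries were below all KO libraries, but the difference was small (log2 -0.44 ± 0.06, adjusted p = 4.10e-06, or -0.64 with the length correction). With scaling to library totals alone the difference was -0.02 (adjusted p = 0.728). The anchor Sdhd had 89.5, 92.3 and 92.2 CPM in AML, against 578, 607 and 577 CPM in KO (log2 -2.68 ± 0.06, adjusted p = 1.37e-17, or -1.51 with the length correction), and the anchor Sdhc 53.3, 52.6 and 53.8 CPM in AML, against 161, 175 and 152 CPM in KO (log2 -1.61 ± 0.06, adjusted p = 1.83e-14, or -1.49).

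Complex III hands electrons from ubiquinol to cytochrome c, and all 8 of its nuclear members measured here fell in AML. Uqcrb, which takes part in ubiquinone binding, had 41.9, 39.2 and 42.3 CPM in AML, against 511, 463 and 462 CPM in KO, an 11.6-fold difference with no overlap (log2 -3.54 ± 0.09, adjusted p = 3.83e-17, or -2.13 with the length correction). Uqcr11, the smallest subunit (ENSMUSG00000020163, chr10:80402997-80406821), had 68.9, 69.7 and 70.6 CPM in AML, against 693, 634 and 700.1 CPM in KO, 9.69-fold apart (log2 -3.28 ± 0.06, adjusted p = 2.50e-18, or -1.66 with the length correction). Uqcr10 differed by -3.07 ± 0.06 (adjusted p = 3.38e-18, or -1.41 with it). The core protein Uqcrc1 had 168, 178 and 174 CPM in AML, against 476, 587 and 508 CPM in KO, without overlap (log2 -1.60 ± 0.32, adjusted p = 0.0014). Its values were uneven in the WT and NHD13 libraries, and that spread enters the shared error.

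Cytochrome c carries electrons from complex III to complex IV and, once released from mitochondria, sets off the caspase cascade. Cycs (ENSMUSG00000063694, chr6:50562563-50566569) had 174, 179 and 177 CPM in AML, against 1000, 958 and 915 CPM in KO. The AML values were close together and far below KO (log2 -2.44 ± 0.07, adjusted p = 3.08e-16), and the length correction hardly moved the difference, to -2.38.

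Complex IV reduces oxygen. Its abundant small subunits fell in AML by different amounts. Cox6b1 had 91.7, 93.1 and 91.6 CPM in AML, against 831, 789.9 and 796 CPM in KO (log2 -3.13 ± 0.07, adjusted p = 7.61e-18, or -1.57 with the length correction). Cox8a had 168, 161 and 171 CPM in AML, against 897, 801 and 939 CPM in KO (log2 -2.40 ± 0.08, adjusted p = 1.51e-15, or -0.70 with it). Cox6a1 had 277, 305 and 299.7 CPM in AML, against 995, 895 and 1054 CPM in KO (log2 -1.74 ± 0.07, adjusted p = 7.26e-14). None of these groups overlapped, and with the length correction the difference of Cox6a1 shrank to -0.18 (adjusted p = 0.0198). Cox6a1 is listed at 702 bases, and all genes in the bin around 744 bases had a corrected median of 0.51.

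Beside these falls, several marker lists differed between the same libraries. Sums and means of marker genes, here and below, are CPM per library total without the TMM scaling. B cell markers summed to 1412 to 1424 CPM in AML, against 199 to 252 CPM in KO (4 of 9 rose and 3 fell), of which Ighm alone averaged 1391 CPM in AML and 165 in KO, while Cd79b averaged 19.3 CPM in AML and 56.8 in KO. The same libraries had megakaryocyte markers that summed to 35.7 to 38.2 CPM in AML, against 384 to 390.5 CPM in KO (0 of 6 rose, also at an unadjusted p below 0.05 and with DESeq2, and 6 fell), and erythroid markers to 264.5 to 274 CPM in AML, against 638 to 653 CPM in KO (3 of 11 rose and 7 fell). Mast cell and basophil markers summed to 27.2 to 33.9 CPM in AML, against 394 to 416 CPM in KO, with Fcer1a without counts in both. The part of these lists in the falls of the respiratory chain genes was not tested.

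The comparison of KO with NHD13 sets libraries labelled as Setd2 KO against flox/flox libraries, both with the fusion. Sex and marker levels also differed between them, as given above, and cannot be told apart from the loss of Setd2. The respiratory chain did not move as a block between these groups. There, 11 members rose and 9 fell, where 20.6% of all genes rose and 20.3% fell. A further 43 did not pass, and the median was -0.04, against 0.02 over all genes. Ndufa4l2, whose direction followed from the choice of members, is among the 11. The shares of members called were near those of all genes. Scaled to library totals alone, 31 rose and 4 fell (33.8% and 12.6% of all genes) with a median of 0.15, but the median of all genes then stood at 0.21, so relative to it the members differed by -0.06 under both scalings. By complex, 5 rose and 7 fell in complex I, 1 rose in complex II, 1 rose and 1 fell in complex III, and 4 rose and 1 fell in complex IV. All KO libraries were above all NHD13 libraries for 10 members and below them for 12, where 25.5% and 24.3% of all genes were so placed. Leaving out KO replicate 1 or 3 lowered the number that rose to 5 or 3, and leaving out NHD13 replicate 1 or 3 lowered it to 4 or 6.

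Among the members that rose in KO, Sdhb had 479.9, 493 and 505 CPM in KO, against 354, 373 and 361 CPM in NHD13. All KO libraries were above all NHD13 libraries (log2 0.44 ± 0.05, adjusted p = 2.35e-06), and the other 3 complex II genes gave no call. Ndufa10, an accessory subunit of complex I, had 348, 338 and 356 CPM in KO, against 296, 288 and 321 CPM in NHD13 (log2 0.20 ± 0.06, adjusted p = 0.00626). With the length correction 4 members rose, Sdhb, Ndufa10, Cox6a2 and Ndufa4l2, and 17 fell (18.3% and 22.8% of all genes). The direction of Ndufa4l2 followed from the choice of members.

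The members that fell in KO under both the TMM and the library total scaling were Ndufb3, Ndufv3, Cox7a2 and Uqcrb. Ndufb3, an accessory subunit of complex I (ENSMUSG00000026032, chr1:58586397-58595964), had 225, 209 and 202 CPM in KO, against 329, 353 and 317 CPM in NHD13 (log2 -0.65 ± 0.08, adjusted p = 5.41e-06). Ndufv3, a small accessory subunit of the NADH-oxidising module (ENSMUSG00000024038, chr17:31520115-31531326), had 189, 179 and 179 CPM in KO, against 250.3, 259 and 263 CPM in NHD13 (log2 -0.50 ± 0.06, adjusted p = 1.64e-06). Neither gene's groups overlapped. Uqcrb differed by -0.39 ± 0.08 (adjusted p = 5.00e-04), or -0.20 with library totals, while Cycs did not pass (log2 0.14 ± 0.07, adjusted p = 0.104) under the TMM scaling and did with library totals (0.33, adjusted p = 3.08e-04).

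In the same libraries the 12 neutrophil granule genes all fell and the 11 stem and progenitor markers all rose in KO, with the sums given above, and megakaryocyte markers summed to 384 to 390.5 CPM in KO, against 33.4 to 38.4 CPM in NHD13. Their part in the differences of single members was not tested.

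The comparison of NHD13 with WT addresses the fusion itself. Relative to the typical gene, respiratory chain genes were higher in NHD13: 37 of 63 rose and 4, Cox6a2 among them, fell, where 25.3% of all genes rose and 28.7% fell, with a median of 0.21, against -0.04 over all genes. As a part of the whole library they were lower, since scaling to library totals moved the median of all genes to -0.42, and 2 members then rose and 32 fell (10.7% and 53.2% of all genes) with a median of -0.16. Relative to all genes the members differed by 0.25 and 0.26 under the 2 scalings. All 3 NHD13 libraries were above all 3 WT libraries for 38 members and below them for 5, where 25.6% and 30.4% of all genes were so placed.

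By complex, under the TMM scaling, 21 of 35 members of complex I rose in NHD13 and 0 fell (also 0 at an unadjusted p below 0.05 and with DESeq2), 1 of 4 in complex II rose and 1 fell, 5 of 8 in complex III rose, 9 of 15 in complex IV rose and 3 fell, and cytochrome c rose. With upper-quartile factors 14 rose and 2 fell in complex I. With library totals 2 rose and 18 fell in complex I, 0 rose and 3 fell in complex II, 0 and 4 in complex III, and 0 and 7 in complex IV. In complex I, 18 of the 28 accessory subunits rose (median 0.27) and 3 of the 7 core subunits (median 0.08). With library totals the median turned to -0.16, so that value is given beside each of the next 2 genes. Cycs had 865, 952 and 788 CPM in NHD13, against 592, 657 and 622 CPM in WT, with no overlap (log2 0.48 ± 0.07, adjusted p = 7.87e-06; with library totals 0.09, adjusted p = 0.207). Sdhd had 651, 652 and 596 CPM in NHD13, against 483, 515 and 522 CPM in WT (log2 0.32 ± 0.06, adjusted p = 9.25e-05, and -0.06 with library totals).

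Ndufv3 and Ndufb3 were the 2 members that rose in NHD13 under both scalings. Ndufv3 had 250.3, 259 and 263 CPM in NHD13, against 131, 148 and 149 CPM in WT (log2 0.85 ± 0.06, adjusted p = 6.33e-10), and 0.47 with library totals. Ndufb3 had 329, 353 and 317 CPM in NHD13, against 163, 212 and 210.3 CPM in WT (log2 0.77 ± 0.08, adjusted p = 3.91e-07), and 0.39 with library totals. In both genes every NHD13 library was above every WT library, and both are among the genes that were lower in KO than in the same NHD13 libraries, which the 2 comparisons share.

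Apart from Cox6a2, whose direction followed from the choice of members, those that fell in NHD13 under both scalings were Cox7a2l, Sdhb and Ndufa4. Sdhb had 354, 373 and 361 CPM in NHD13, against 423, 433 and 448 CPM in WT (log2 -0.26 ± 0.05, adjusted p = 4.83e-04). Ndufa4, first described in complex I and now counted as a complex IV subunit, had 695, 739 and 657 CPM in NHD13, against 735, 907 and 830.3 CPM in WT (log2 -0.24 ± 0.08, adjusted p = 0.0129). The groups of Ndufa4 overlapped, whereas those of Sdhb did not. Uqcrc1 did not pass (825, 603 and 942 CPM in NHD13, against 988, 435 and 452 CPM in WT, log2 0.34 ± 0.31, adjusted p = 0.402), and without WT replicate 1 its difference was 0.83 (adjusted p = 0.00429). The neutrophil granule genes, 12 of 12 of which rose, and the stem and progenitor markers, 11 of 11 of which fell, moved with this comparison, as did the megakaryocyte markers (33.4 to 38.4 CPM in NHD13, against 267 to 285 in WT, 6 of 6 of which fell) and the mast cell and basophil markers (82.9 to 93.0 CPM in NHD13, against 575 to 602 in WT, 6 of 6 of which fell). Their part in it was not tested.

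Several complex IV subunits exist in alternative forms. Leaving aside differences whose direction followed from the choice of members, the widest among the members was that of Cox6b2 in AML over KO. Cox6b2, a form of Cox6b known from testis (ENSMUSG00000051811, chr7:4751792-4753094), had 0.905, 0.383 and 0.624 CPM in AML, against 105, 100.2 and 105 CPM in KO, 103, 110.1 and 112 CPM in NHD13 and 98.0, 110.4 and 108 CPM in WT. It was thus near the floor in all 3 AML libraries and between 98.0 and 112 CPM in the other 9 under the TMM scaling. The AML over KO difference was -7.33 ± 0.13 on the log2 scale (161-fold lower, adjusted p = 1.45e-18), or -6.10 with the length correction, while KO over NHD13 was -0.07 (adjusted p = 0.51) and NHD13 over WT 0.04 (adjusted p = 0.714). With library totals these 2 values were 0.12 (adjusted p = 0.242) and -0.35 (adjusted p = 9.30e-04), so whether Cox6b2 was lower in NHD13 than in WT depends on the scaling. Per length, Cox6b2 made up 0.441% ± 0.182 of the sum of Cox6b2 and Cox6b1 in AML, 7.57% ± 0.178 in KO, 7.55% ± 0.457 in NHD13 and 9.36% ± 0.0944 in WT (SD, n = 3 each).

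Cox6a2, a heart and muscle form (ENSMUSG00000030785, chr7:128205435-128206366), had 0.646, 0.809 and 0.741 CPM in AML, 0.58, 0.533 and 0.854 CPM in KO, 0.27, 0.367 and 0.148 CPM in NHD13, and 10.63, 9.93 and 11.12 CPM in WT. The WT libraries stood far above all others. KO over NHD13 was 1.31 ± 0.38 (adjusted p = 0.00919), a call that was lost without KO replicate 3 (adjusted p = 0.0526) or NHD13 replicate 3 (adjusted p = 0.0584), and its annotated span overlaps that of Itgad by 70 bases. Cox7a1, also known from heart and muscle, stayed between 0.643 and 1.37 CPM in all 12 libraries, with KO over NHD13 at 0.76 ± 0.29 (adjusted p = 0.0457), a call lost with the length correction.

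Cox7a2l encodes a relative of Cox7a2 that joins complexes III and IV into supercomplexes, and C57BL/6 mice are known to carry a shortened form. Cox7a2l (ENSMUSG00000024248, chr17:83501917-83514333) had 114, 114 and 121 CPM in AML, 152, 143 and 157 CPM in KO, 129, 139 and 134 CPM in NHD13, and 153, 176 and 177 CPM in WT. Cox7a2 itself had 43.2, 44.8 and 44.7 CPM in AML, 348, 325 and 327 CPM in KO, 427, 469 and 429 CPM in NHD13, and 271, 340 and 324 CPM in WT. The AML libraries were thus low for Cox7a2 and only slightly below KO for Cox7a2l. AML over KO was -2.91 ± 0.08 for Cox7a2 (adjusted p = 1.10e-16) and -0.37 ± 0.06 for Cox7a2l (adjusted p = 3.41e-05), the sign of the Cox7a2l value turning to 0.04 with library totals and to 0.84 with the length correction. Per length, Cox7a2l made up 68.4% ± 0.75 of the sum of the pair in AML, 27.1% ± 1.07 in KO, 20% ± 0.449 in NHD13 and 30.9% ± 0.959 in WT, and no 2 groups overlapped. The annotated span of Cox7a2 overlaps that of Tmem30a by 2482 bases and that of a pseudogene, so its counts are less certain.

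Ndufa4l2, a hypoxia-inducible relative of Ndufa4, had 0.172, 0.383 and 0.429 CPM in AML and 1.21, 2.09 and 0.949 CPM in KO, and no count in any NHD13 or WT library. The KO libraries were above all others, which is how the gene met the level for inclusion, and over the KO group it had 98 counts. Cox4i2, the hypoxia-related form of Cox4i1 that the symbol rule does not reach, made up 0.915% ± 0.213 of the pair per length in AML, 0.210% ± 0.0727 in KO, 0.0493% ± 0.0117 in NHD13 and 0.216% ± 0.0685 in WT.

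**Figure D4:**
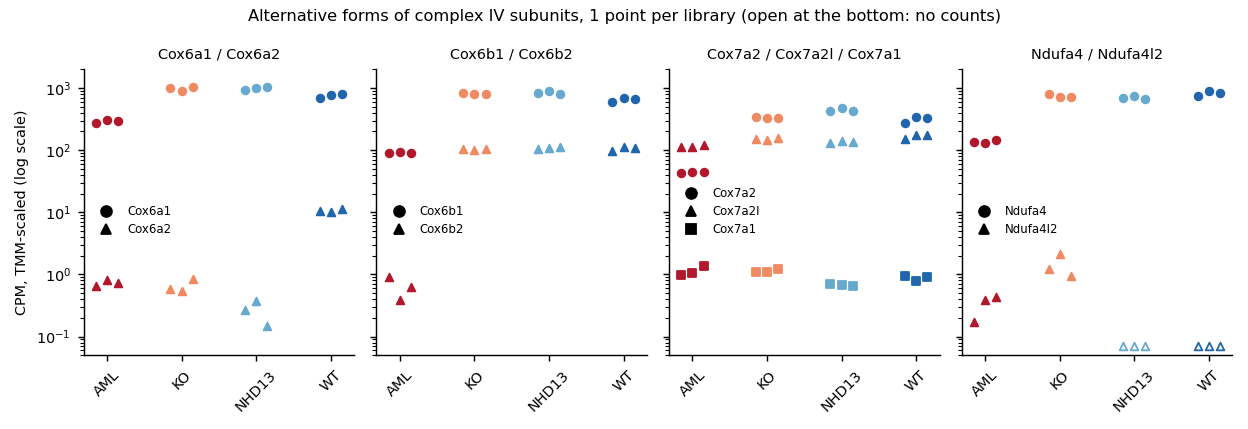
CPM (log axis) of alternative forms of complex IV subunits in the 12 libraries, by group; open points at the bottom had no counts. Cox6b2 is below 1 CPM in the AML libraries and near 100 CPM elsewhere, and Cox6a2 is near 10 CPM in WT alone.

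Genes that work beside the respiratory chain were counted from lists of their own, to be read against the 39.5% of all genes that fell in AML over KO and the 42.8% that rose (38.4% and 41.3% with the length correction). Of 18 ATP synthase genes, 17 fell in AML and 0 rose (0 also at an unadjusted p below 0.05 and with DESeq2, but 1 with library totals and 1 with the length correction), with a median of -2.11, or -1.85 with the length correction. Atp5g1, which encodes the c subunit of the rotor, differed by -3.32 ± 0.06 (adjusted p = 1.20e-18). Of 42 assembly factors, 34 fell and 3 rose (median -1.44), among them the complex IV factors Cox14 (-2.50 ± 0.07, or -0.96 with the length correction) and Coa3 (-2.02 ± 0.06, or -0.62). Of 16 genes of pyruvate dehydrogenase and the citric acid cycle 12 fell and 2 rose (median -0.79; with library totals 9 fell and 5 rose), Mdh2 by -1.98 ± 0.07 and Idh3a by -1.76 ± 0.05. Cox4i1, Cyc1 and Ndufab1, which the symbol rule does not reach, also fell, by -2.29 ± 0.07, -2.07 ± 0.07 and -2.45 ± 0.09, or -1.30, -0.88 and -3.21 with the length correction.

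Regulators of mitochondrial biogenesis gave 12 rises and 4 falls among 17 genes in AML (median 0.87), or 11 and 4 with the length correction (median 0.59), beside the same shares of all genes. Polg2, the accessory subunit of the mitochondrial DNA polymerase, differed by 3.60 ± 0.10, Gabpb2, a partner of the ETS factor GABPA, by 3.0 ± 0.09 (1.73 with the length correction), and the coactivator Pprc1 by 1.42 ± 0.09 (0.59 with it). The 12 mitochondrially encoded subunits that passed the filter gave 1 rise and 6 falls with a median of -0.39, which turned to 0.03 with library totals and to 0.97, with 8 rises and 1 fall, with the length correction. mt-Cytb had -1.19 ± 0.11 without and 0.03 with that correction, and mt-Co1 0.95 ± 0.16.

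In KO over NHD13, 3 ATP synthase genes rose and 0 fell (0 also at an unadjusted p below 0.05 and with DESeq2), 5 assembly factors rose and 12 fell, and 3 citric acid cycle genes rose and 5 fell, where 20.6% of all genes rose and 20.3% fell. With library totals these counts were 11 and 0, 11 and 4, and 7 and 0 (33.8% and 12.6% of all genes), and with the length correction 3 and 3 for ATP synthase. Among assembly factors that fell were Sdhaf3 of complex II at -1.33 ± 0.12, Ndufaf3 of complex I at -0.62 ± 0.06 and Coa3 at -0.48 ± 0.06. No mitochondrially encoded subunit was called in edgeR, in DESeq2 or at an unadjusted p below 0.05. In NHD13 over WT, 10 ATP synthase genes rose and 0 fell, 15 assembly factors rose and 7 fell, and 11 citric acid cycle genes rose and 3 fell (25.3% and 28.7% of all genes), but with library totals 0 rose and 9 fell, 3 rose and 23 fell, and 1 rose and 8 fell (10.7% and 53.2% of all genes). Ndufaf3 differed by 1.05 ± 0.07 (adjusted p = 1.17e-10), citrate synthase Cs by 0.65 ± 0.08 and Cyc1 by 0.57 ± 0.07 under the TMM scaling.

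H3K36me3 is laid down over the bodies of transcribed genes. In 1 ChIP library of each kind, which allows no test, peaks covered at least 50% of the gene body for 2 of the 63 members in KO AML and for 36 in NHD13 AML, where 3.66% and 41.8% of all 14355 genes examined were so covered. The median member had 1.59% of its body under peaks in KO AML and 57.5% in NHD13 AML, against 0% and 35.9% over all genes. The authors' lists hold 16902 peaks over 28415626 bases in KO AML and 30953 peaks over 193042873 bases in NHD13 AML, so the lists also differ in total length.

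Among single members, Ndufa10 had 1.59% of its body under peaks in KO AML and 90.4% in NHD13 AML, Cycs 0% and 70.6%, and Sdha 13.4% and 82.5%. Uqcr11, at 61.8% in KO AML and 67.01% in NHD13 AML, and Ndufb9, at 57.1% and 63.1%, were the 2 members past 50% in both. A single base or more was under a peak for 33 members in KO AML and for 60 in NHD13 AML (42.9% and 69.1% of all genes). No member passed 50% in KO AML alone, 34 did so in NHD13 AML alone and 27 in neither, where over all 14355 genes 7 passed in KO AML alone, 5477 in NHD13 AML alone, 518 in both and 8353 in neither. Just inside and outside this limit in NHD13 AML lay Sdhb at 50.1% and Ndufb2 at 49.0%. Cox6b2, Cox6a2 and Ndufb11 had no peak in either library.

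**Figure D5:**
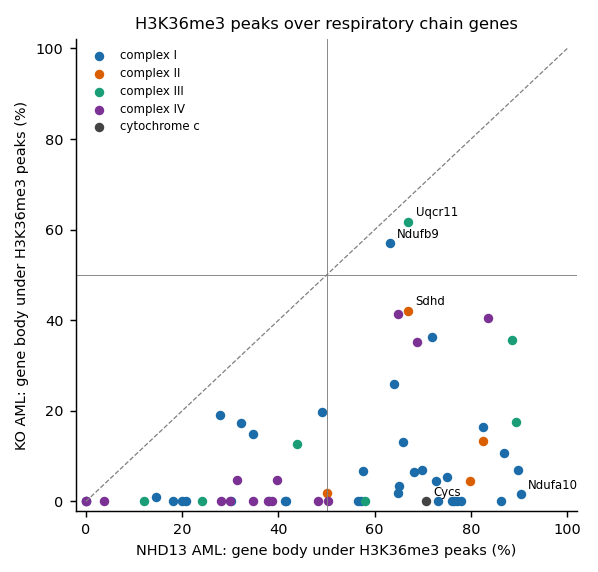
Percent of each member's gene body under H3K36me3 peaks in NHD13 AML (horizontal) and KO AML (vertical); lines stand at 50% and the dashed line marks equal values. Points lie below the dashed line apart from members at 0 in both, and only Uqcr11 and Ndufb9 pass 50% in KO AML.

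DNA methylation was compared through the authors' tables of differentially methylated regions, each from 1 library per group, without coverage and without a test made here. Of the 52 members with a strand in the promoter table, 11 had such a region in the gene body or the 5 kb before it in AML over KO, 18 in KO over NHD13 and 19 in NHD13 over WT, where 55.1%, 52.4% and 60.3% of all 10811 genes with a strand did. A longer gene body leaves more room for a region, and these shares were not matched for its length. The listed lengths given above do not measure the gene body: Ndufs4 is listed at 2298 bases and has a body of 100300 bases. Without body lengths over all genes, the shares are not read as a result about the members. In AML over KO, 8 of the members' 17 regions were lower in AML, where 58.7% of the regions found by the same rule for all 10811 genes were. In KO over NHD13, 17 of 23 were lower in KO, against 40% for all genes, and in NHD13 over WT 21 of 23 were lower in NHD13, against 78.7% for all genes. No test was made of these shares. Some members, such as Sdhb and Ndufa8, hold more than 1 of the regions. Those lower in KO include regions of the X-linked Ndufa1, Ndufb11 and Cox7b, and the sex of the bisulfite libraries is not given. Ndufv3, Cox7a2, Ndufs4, Ndufa4, Ndufb10 and Sdhb each held a region in the gene body in all 3 tables. In Ndufv3, methylation over chr17:31524633-31525107 was 58.5% in AML and 88.4% in KO. Over chr17:31524633-31524891 it was 88.4% in KO and 59.7% in NHD13, and over chr17:31524633-31525356 it was 62.9% in NHD13 and 95.8% in WT. Regions of Cox7a2 and Ndufs4 went the same ways. Those of Ndufa4 and Ndufb10 were lower in KO than in NHD13 and higher in AML than in KO. Those of Sdhb went both ways in each of these comparisons.

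Regions over a start site were found for 1 member in AML over KO, Cox6b2, and for 4 in KO over NHD13, Cox6b2 and the X-linked Ndufa1, Ndufb11 and Cox7b. At Cox6b2, methylation over chr7:4751969-4753364 (98 CpG sites) was 68.2% in AML and 29.9% in KO, and over chr7:4752890-4753404 (40 CpG sites) it was 51.2% in KO and 21.2% in NHD13. A further region, chr7:4753488-4753602 (8 CpG sites), lay before the start site and had 54.0% in NHD13 and 27.5% in WT. In each pair the first-named library was the more methylated, while the RNA level of Cox6b2 was low only in AML. The 2 regions over the start site cover all 300 bases of the promoter window, which is printed with its 10 CpG sites in capitals (RefSeq, GRCm38.p6, chr7:4753045-4753344, minus strand, from 250 bases before to 50 bases after the start).

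Cox6b2 promoter: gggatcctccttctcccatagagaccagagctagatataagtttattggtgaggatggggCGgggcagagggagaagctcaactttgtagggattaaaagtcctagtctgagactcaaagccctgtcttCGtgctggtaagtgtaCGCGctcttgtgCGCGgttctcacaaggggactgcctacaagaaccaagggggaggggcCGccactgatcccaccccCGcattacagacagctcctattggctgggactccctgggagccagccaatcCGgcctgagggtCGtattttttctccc

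At the X-linked Ndufa1 (ENSMUSG00000016427, chrX:37187588-37191238), methylation over chrX:37190446-37192531 (243 CpG sites) was 8.98% in KO and 39.6% in NHD13. At Ndufb11 it was 11.1% in KO and 41.3% in NHD13 over chrX:20617114-20618986 (162 CpG sites), and at Cox7b 8.53% in KO and 32.8% in NHD13 over chrX:106015519-106016384 (60 CpG sites). The RNA libraries of KO had next to no Xist and those of NHD13 had Xist, with the values given above, and no label gives the sex of the bisulfite libraries, so sex and genotype cannot be told apart at these start sites. Ndufa1 RNA did not differ detectably between KO and NHD13 (348, 333 and 318 CPM in KO, against 364, 389.5 and 361 CPM in NHD13, log2 -0.16, adjusted p = 0.0684, and 0.03 with library totals), but with the length correction it was lower in KO (-0.33, adjusted p = 0.00279). The CpG-dense promoter window of Ndufa1 lies inside the region and is shown with its 29 CpG sites in capitals (RefSeq, GRCm38.p6, chrX:37191189-37191488, minus strand).

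Ndufa1 promoter: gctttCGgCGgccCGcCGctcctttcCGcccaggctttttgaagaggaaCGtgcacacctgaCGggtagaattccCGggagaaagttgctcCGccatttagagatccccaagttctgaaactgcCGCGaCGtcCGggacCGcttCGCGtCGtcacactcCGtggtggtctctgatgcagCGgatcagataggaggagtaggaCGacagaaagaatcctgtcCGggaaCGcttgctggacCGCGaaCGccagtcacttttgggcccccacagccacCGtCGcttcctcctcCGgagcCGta

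Promoter windows of 300 bases were available for 52 members and 32851 windows in all. The members' windows were richer in CpG, with a median of 19 sites over 54 windows, against 7 over all windows. They were searched on both strands for the letters of factors known to control respiratory genes, and a match is a description of letters only. The letters GCGCATGC of nuclear respiratory factor 1 (NRF1) were in the windows of 8 members (15.4%, against 2.71% of all windows), those of Cox6a1, Cycs, Ndufa11, Ndufa6, Ndufa8, Sdhb, Uqcr11 and Uqcrc1. The YY1 letters AAGATGGC were in 7 (13.5%, against 2.75%), those of Ndufa3, Ndufa9, Ndufb8, Ndufc1, Ndufs4, Ndufs6 and Ndufs7, and the ETS letters ACTTCCGG in 4 (7.69%, against 3.89%), those of Cox8a, Ndufs3, Uqcr11 and Uqcrh. The E-box CACGTG was in 2 (3.85%, against 7.15%) and the Sp1 letters GGGCGGGG in 8 (15.4%, against 17.6%). The members' shares count genes with the letters in any window, whereas the others count single windows. They were not matched for CpG content, in which the 2 sets differ, so a higher share is not a result about the members.

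In AML over KO the median log2 fold change was -2.30 for members with GCGCATGC and -2.38 for those without it, and -2.28 with the YY1 letters and -2.39 without them. The windows of Cycs and Uqcr11 are shown as members that hold these letters and fell in AML. NRF1 was first found at the cytochrome c promoter of the rat. In the Cycs window (RefSeq, GRCm38.p6, chr6:50566520-50566819, minus strand) the capitals mark GCATGCGC, the NRF1 letters read from the other strand, and in the Uqcr11 window (chr10:80406772-80407071, minus strand) they mark CCGGAAGT, the ETS letters from the other strand, and GCATGCGC.

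Cycs promoter: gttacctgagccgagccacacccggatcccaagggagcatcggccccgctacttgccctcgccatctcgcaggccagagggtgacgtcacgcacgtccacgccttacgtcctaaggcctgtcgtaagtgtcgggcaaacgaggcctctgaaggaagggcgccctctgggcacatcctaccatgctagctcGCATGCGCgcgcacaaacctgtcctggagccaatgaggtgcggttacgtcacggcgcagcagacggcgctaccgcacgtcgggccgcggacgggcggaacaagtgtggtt

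Uqcr11 promoter: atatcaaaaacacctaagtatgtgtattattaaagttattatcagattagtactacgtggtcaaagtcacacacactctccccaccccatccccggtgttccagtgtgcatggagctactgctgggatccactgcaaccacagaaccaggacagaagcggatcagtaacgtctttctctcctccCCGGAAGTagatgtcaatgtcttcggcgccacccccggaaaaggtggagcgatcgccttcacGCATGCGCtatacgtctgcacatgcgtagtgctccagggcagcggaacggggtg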

How the data were processed

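Raw gene counts were deposited by the authors as 1 table; per the submitters' processing notes, reads were handled with HISAT2 2.0.5 and HTSeq 0.9.1 on mm10, and no source used here gives the strand setting of the counting, so the 19 members whose annotated spans overlap another gene are less certain. The FPKM values the authors deposited equal count over gene length and column total. The authors' peak lists (Bowtie2 2.2.9 and MACS2 2.1.1.20160309, per the submitters' processing notes) hold a fold enrichment, a score and −log10 p and q values for each peak. The authors' methylation tables give each region a mean level in either library, as a fraction, and a score, per the file headers. The order of names in each table's name assigned the levels to libraries, and regions shared between tables were used as a check.

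Counts were tested with edgeR 4.0.16 in R 4.3.3: TMM factors, filterByExpr (16233 genes kept), 1 mean per group over 12 libraries (8 residual degrees of freedom), robust quasi-likelihood F test, Benjamini-Hochberg adjustment at 0.05. The SE is the size of the log2 fold change over the square root of F. The length correction subtracts a loess curve (span 0.5) against log gene length from each library, and enters as offsets. Alternatives were DESeq2 1.42.0, limma 3.58.1 on log2 FPKM with pseudocounts of 1 and 0.1, other scalings and filters, a replicate block and leaving out each library. Scripts were tested on simulated counts. Gene bodies, start sites and promoter windows came from RefSeq tables of GRCm38.p6, the build of mm10, matched by symbol (63 of 63 members for positions, 52 for promoters). Overlap meant at least 1 base. Longer forms of the NRF1 and YY1 letters were searched first and are not reported.

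The members and lists were chosen with earlier results of these data known. Values in every library were to be given for Cycs and the Sdh genes, the 3 members highest in FPKM in complexes I, III and IV, the alternative forms, and the 5 largest rises and falls of each comparison, with up to 3 genes of each other list; the text prints part of these. The core subunits, and Ndufs1, Ndufv1 and Uqcrc1 as examples, were chosen after their values were seen. The single values of 1 member are not reported here, and it is counted in the totals.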

Additional observations from a re-analysis of the deposited data

How the results depend on the processing

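The number of members that fell in AML over KO stayed within 1.5 times under every alternative run, though single calls did not: Cox7a2l changed sign, Sdha was -0.02 with library totals (adjusted p = 0.728), and Ndufa4l2 was not called with the length correction. Leaving out 1 library gave 60 to 61 members that fell, 0 that rose, a median of -2.36 to -2.30 and a share ratio (AML share of counts over KO share) of 0.284 to 0.290. Members that rose there numbered 3 with the length correction, alone or with the replicate block, and 2 with either FPKM pseudocount. The median was -1.92 with library totals, -1.26 with the length correction, -1.25 with it and the replicate block, -1.91 and -1.89 with FPKM pseudocounts of 0.1 and 1, -2.44 in a fit of only these 2 groups and -2.52 with upper-quartile factors; the share ratio was 0.216 with TMM totals and 0.336 in summed FPKM.

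The other comparisons turned with the scaling. In KO over NHD13, 31 rose and 4 fell with library totals, 31 and 3 with an FPKM pseudocount of 0.1, 30 and 3 with 1, 4 and 17 with the length correction (with or without the replicate block), 4 rose with no low-count filter, 5 fell with upper-quartile factors, and leaving out 1 library gave 3 to 9 that rose and 7 to 10 that fell. Its median was 0.15 with library totals, 0.15 with either pseudocount, 0.03 with upper-quartile factors, -0.081 with the length correction, -0.082 with that and the block, and -0.07 to -0.02 without 1 library; its share ratio was 0.967 with TMM totals, 1.23 in summed FPKM and 1.09 to 1.11 without 1 library. In NHD13 over WT, 2 rose and 32 fell with library totals, 2 and 30 with a pseudocount of 0.1, 2 and 31 with 1, and 31 to 37 and 3 to 4 without 1 library. Its median was -0.16 with library totals, -0.16 and -0.15 with pseudocounts of 0.1 and 1, 0.13 with upper-quartile factors, 0.28 with the length correction and with that and the block, and 0.13 to 0.25 without 1 library; its share ratio was 1.18 with TMM totals, 0.788 in summed FPKM and 0.894 to 0.909 without 1 library.

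Printed values that changed sign were Sdhd in NHD13 over WT (-0.065 with library totals and both FPKM fits), Uqcrc1 in NHD13 over WT (-0.054 with library totals), Cox7a2l in AML over KO (0.042 with library totals, 0.041 and 0.040 with the pseudocounts, 0.844 with the length correction, with or without the block), mt-Cytb in AML over KO (0.032 with the length correction, 0.035 with the block as well) mt-Cytb in NHD13 over WT (-0.022 with library totals, -0.033 with both FPKM fits), and 3 that had not passed: Cox6b2 in NHD13 over WT (-0.347 with library totals, -0.346 and -0.342 with the pseudocounts, -0.048 with upper-quartile factors, -0.012 to 0.081 without 1 library), Cox6b2 in KO over NHD13 (0.117 with library totals, 0.117 and 0.116 with the pseudocounts) and Ndufa1 in KO over NHD13 (0.029 with library totals, 0.028 with either pseudocount). Counting a single base under a peak gave 33 members in KO AML and 60 in NHD13 AML. For each library, the deviations of its genes from the group mean, in log2 CPM, were correlated with those of libraries in other groups. These deviations correlated at -0.0876 to 0.109 for same-numbered libraries and at -0.192 to 0.148 for differently numbered ones. These values show no pairing by number, but with 3 libraries per group they cannot exclude one. With the replicate block alone, 0 rose and 60 fell in AML over KO, 10 and 10 in KO over NHD13, and 37 and 4 in NHD13 over WT. The cause of these changes was not tested. Members near 1 CPM (Cox6a2, Cox7a1, Ndufa4l2) rest on few counts, and the depth of the ChIP and bisulfite libraries is unknown.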
